A study of Homo sapiens with 42 samples.

Results

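The expression of 10 genes of the polyamine pathway was followed in HL-60 cells: the synthesis enzymes ODC1, AMD1, SRM and SMS, the regulators OAZ1, OAZ2 and AZIN1, and the catabolic enzymes SAT1, SMOX and PAOX. They were 10 of the 18417 genes with a probe set that the array annotation gave to 1 gene symbol, and where a gene had several such probe sets the one with the highest mean level over all 42 arrays was taken (each of the 10 had only 1). The genes were chosen by their place in the pathway around ODC1, and ODC1 itself was selected on these arrays, because it stood higher in EZH2 knockdown cells than in Scr cells without ATRA. The values of ODC1 in that contrast and in every other comparison that used those arrays are therefore given as a description, with no test.

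The study asked whether lowering the activity or the amount of EZH2, a histone methyltransferase, changes how acute myeloid leukaemia (AML) cells respond to all-trans retinoic acid (ATRA), a ligand of the retinoic acid receptors that drives myeloid differentiation. HL-60 is an established, MYC-amplified human AML line, so all 42 arrays came from 1 cell line. In the inhibitor experiment (18 arrays) cells were kept for 3 days with 2.5 µM HKMTI-1-005 and 0.1 µM ATRA, 2.5 µM HKMTI-1-005, 10 µM GSK343 and 0.1 µM ATRA, 10 µM GSK343, 0.1 µM ATRA, or none of these (untreated). GSK343 inhibits EZH2, and HKMTI-1-005 inhibits EZH2 and also the methyltransferases EHMT2 and EHMT1. In the knockdown experiment (24 arrays) cells carried a lentiviral short hairpin RNA against EZH2 (shEZH2#1 or shEZH2#2), carried a non-targeting hairpin (Scr), or were WT cells, taken here as the untransduced control, each with and without ATRA. Transduced cells, Scr cells included, had been selected in puromycin. Each of the 14 groups had 3 arrays, which the submitters call biological triplicates. EZH2 KD below means the arrays of both hairpins pooled.

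Polyamines are small positively charged molecules that bind nucleic acids and that dividing cells need. ODC1 (ornithine decarboxylase) makes putrescine from ornithine, AMD1 makes the aminopropyl donor, and SRM and SMS use that donor to make spermidine and then spermine. Antizymes, the products of OAZ1 and OAZ2, bind ODC1 and send it to the proteasome, and the antizyme inhibitor AZIN1 binds antizyme and so frees ODC1. In the other direction SAT1 acetylates spermidine and spermine, PAOX oxidises the acetylated forms, and SMOX oxidises spermine itself. ODC1 is a textbook target of MYC, which binds the E-box motif, and spermidine is the source of the hypusine of the translation factor eIF5A.

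Sequence upstream of the RefSeq gene start (build GRCh38.p14) was at hand for 7 of the 10 genes, and not for AZIN1, PAOX and SMOX. The 250 bases before the start are shown for ODC1, whose level set the Scr arrays apart, and for SRM, OAZ1 and OAZ2, whose levels varied together among the arrays of a group (r of 0.68 to 0.88 between pairs after subtracting the group means). All 3 of these levels also went with the array median, described below, which was not taken out of these r. All are written 5′ to 3′ on the strand of the gene, with the bases before the start in lower case except for matches to any of 5 motifs searched on both strands, which are in capitals: CACGTG as the E-box, AGGTCA and its variant GGGTCA as the half-site of retinoid receptors, TATAAA as the TATA box, GGGCGG as the GC box, and the CCAAT box by its own letters. None of these motifs contains another.
ODC1, chr2:10448328-10448577 (minus strand): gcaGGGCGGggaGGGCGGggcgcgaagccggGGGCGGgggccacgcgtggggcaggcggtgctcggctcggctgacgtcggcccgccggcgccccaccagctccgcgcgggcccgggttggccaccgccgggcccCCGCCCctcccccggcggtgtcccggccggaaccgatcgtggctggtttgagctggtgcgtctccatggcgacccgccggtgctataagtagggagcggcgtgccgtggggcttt
SRM, chr1:11060019-11060268 (minus strand): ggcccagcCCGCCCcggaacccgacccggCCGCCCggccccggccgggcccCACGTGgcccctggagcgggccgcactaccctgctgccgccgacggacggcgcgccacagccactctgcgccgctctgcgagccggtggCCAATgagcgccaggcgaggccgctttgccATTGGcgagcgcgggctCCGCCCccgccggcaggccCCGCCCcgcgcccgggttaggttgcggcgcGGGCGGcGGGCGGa
OAZ1, chr19:2269236-2269485 (plus strand): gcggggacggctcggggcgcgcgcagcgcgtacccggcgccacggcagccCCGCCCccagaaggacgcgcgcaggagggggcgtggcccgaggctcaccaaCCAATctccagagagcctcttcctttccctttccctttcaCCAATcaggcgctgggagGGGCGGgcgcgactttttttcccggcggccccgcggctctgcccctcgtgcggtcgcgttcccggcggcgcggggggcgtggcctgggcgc
OAZ2, chr15:64703282-64703531 (minus strand): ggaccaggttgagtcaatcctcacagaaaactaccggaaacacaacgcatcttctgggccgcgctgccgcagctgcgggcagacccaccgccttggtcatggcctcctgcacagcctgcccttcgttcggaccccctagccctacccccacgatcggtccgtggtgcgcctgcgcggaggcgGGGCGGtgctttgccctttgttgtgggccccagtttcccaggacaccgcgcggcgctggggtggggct
ODC1 has a second annotated start, and the only E-box of its 2 windows lies 29 bases before that one. It is shown in capitals within 30 bases:
ODC1, second start, chr2:10448024-10448053 (minus strand): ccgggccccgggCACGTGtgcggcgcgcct
In these 250 bases ODC1 held 4 GC boxes, SRM held 1 E-box, 6 GC boxes and 2 CCAAT boxes, OAZ1 held 2 GC boxes and 2 CCAAT boxes, and OAZ2 held 1 GC box. Over all 35116 upstream windows of that length, an E-box was found in 6.34%, a half-site in 22.4%, a TATA box in 10.7%, a GC box in 42.6% and a CCAAT box in 32.0%. A half-site was found in the window of SMS and in 1 of 3 windows of AMD1. A match describes letters only and was not read as a site.

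Levels below are log2 values as deposited, so a difference of 1 is a 2-fold change, and levels of different genes cannot be set against each other because each comes from its own probe set. A gene was called changed when its adjusted p (limma, Benjamini-Hochberg over all 18417 genes) was at most 0.05, its fold change was at least 1.3 and its mean lay in the top 40% of genes, which held 7367 genes and 9 of the 10 members. PAOX, with a mean of 5.13 against the edge of 6.88, did not pass that filter, and no call could be made for it. Where arrays of compared groups are said not to overlap, this is a description and no call. For 3 against 3 arrays the smallest p of an exact rank test is 0.1. The share of all genes without overlap is given only where it was counted. EZH2 was lower in the EZH2 KD arrays (8.98 to 9.56) than in the Scr arrays (10.26 to 10.44), a difference of -1.08 on the log2 scale (adjusted p = 1.72e-05). With ATRA the difference was -0.78 (adjusted p = 0.000652). DHRS3, a retinoic acid target used as a check of the ATRA labels, was higher with ATRA by 3.12 to 4.83 in the 7 backgrounds. All 8 measured myeloid markers lay in the top 40% of genes, and none of 5 lymphoid, 2 erythroid or 3 epithelial markers did. In 6 knockdown arrays (Scr 1 and 2, Scr+ATRA 3, WT+ATRA 3, shEZH2#1 1 and shEZH2#2 2) the median over all probe sets was high, at 5.47 to 5.56, against 5.31 to 5.44 in the other 18 knockdown arrays. Values that move with this median are given beside the results that it touches.

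**Figure D1:**
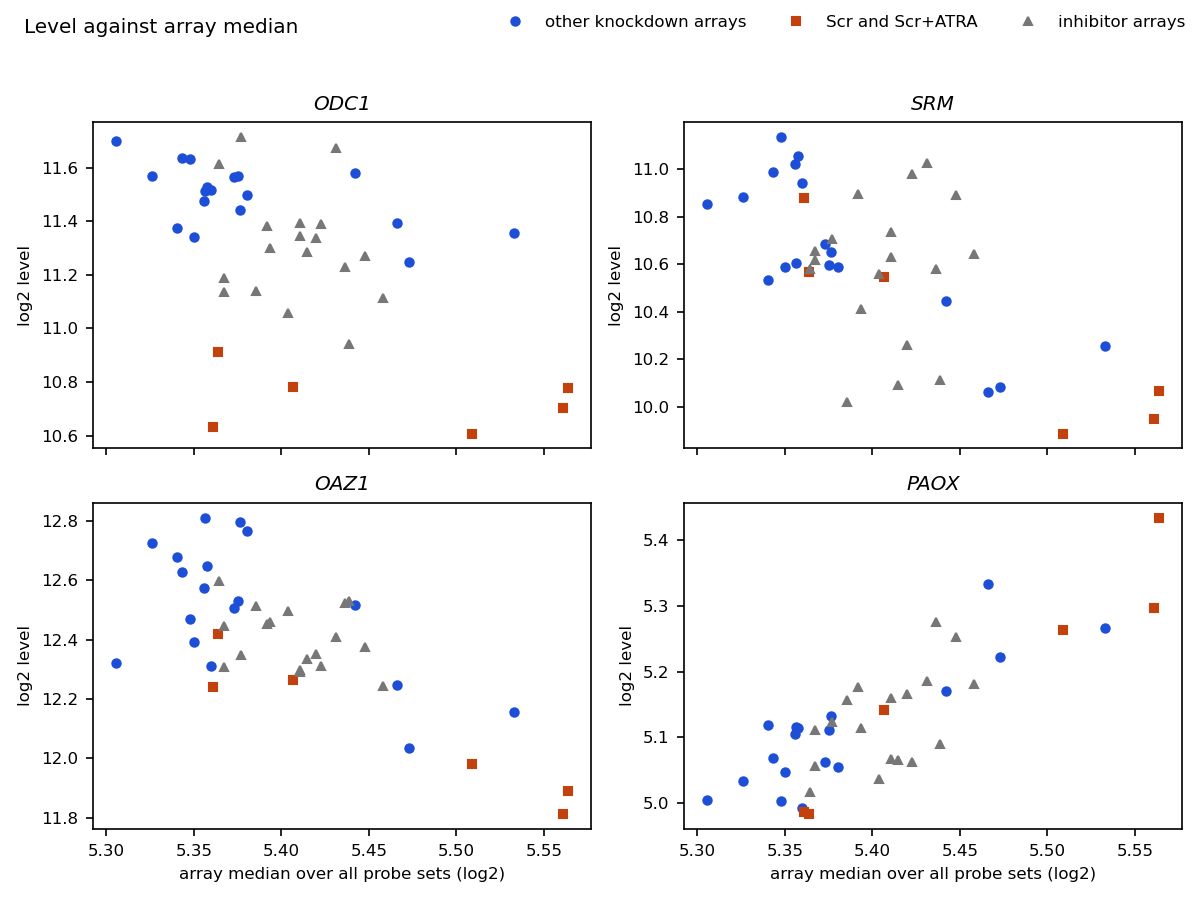
Level of ODC1, SRM, OAZ1 and PAOX in each of the 42 arrays (log2, vertical axes) against the median of that array over all probe sets (log2, horizontal axes), with 1 point per array. SRM and OAZ1 were low and PAOX high in the 6 knockdown arrays with medians of 5.47 to 5.56, while the Scr and Scr+ATRA arrays (squares) had the lowest ODC1 at low and at high medians.

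ODC1 was low in the 6 Scr arrays, with or without ATRA, and higher in the other 6 groups of the knockdown experiment. Without ATRA, ODC1 stood at 11.39, 11.34 and 11.53 in shEZH2#1 cells and at 11.63, 11.36 and 11.48 in shEZH2#2 cells, against 10.78, 10.70 and 10.63 in Scr cells. WT cells stood at 11.70, 11.63 and 11.52. All 3 Scr arrays lay below all 9 arrays of the other groups without ATRA, a pattern that 2.65% of the 7367 genes had. The EZH2 KD arrays were 0.75 above the Scr arrays (0.72 for shEZH2#1 and 0.79 for shEZH2#2), and this contrast is the one ODC1 was selected on. Against WT cells, the other control of the knockdown experiment, the EZH2 KD arrays differed by -0.16 and the Scr arrays by -0.91. The contrasts against Scr and of Scr against WT share the Scr arrays.

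The arrays with ATRA were not used to select ODC1, and a test is given for them. The Scr and EZH2 KD arrays among them carried the same hairpins as the arrays used to select it, and all arrays shared the same fit. Between cells with and without ATRA, ODC1 differed by only 0.06 in Scr, 0.02 in shEZH2#1 and 0.06 in shEZH2#2 cells. The p-values below are therefore not independent of the selection. ODC1 stood at 11.50, 11.37 and 11.44 in shEZH2#1+ATRA cells and at 11.51, 11.58 and 11.57 in shEZH2#2+ATRA cells, against 10.78, 10.91 and 10.61 in Scr+ATRA cells. WT+ATRA cells stood at 11.57, 11.57 and 11.25. Again all 3 Scr+ATRA arrays lay below the 9 others with ATRA, as they did for 1.63% of genes. EZH2 KD+ATRA exceeded Scr+ATRA by 0.73 ± 0.09 (SE), a 1.66-fold difference (95% interval 0.54 to 0.91 on the log2 scale, adjusted p = 9.11e-06), and each hairpin alone passed (adjusted p = 0.000223 for shEZH2#1 and 4.60e-05 for shEZH2#2). Scr+ATRA was lower than WT+ATRA, with a difference of -0.69 (adjusted p = 0.000429). EZH2 KD+ATRA differed from WT+ATRA by 0.04 (95% interval -0.15 to 0.22, adjusted p = 0.942). The difference between EZH2 KD and control cells with ATRA was thus present against the non-targeting hairpin and was not detected against WT cells. Without the 6 arrays of high median, the differences with ATRA were 0.65 against Scr+ATRA and, for Scr+ATRA against WT+ATRA, -0.72.

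Over all 14 groups, the mean of ODC1 ran from 10.70 in Scr cells to 11.61 in WT cells. In that order, neighbouring groups overlapped at every step except that between ATRA at 11.10 and Scr+ATRA at 10.77. The gap was 0.34, where the larger SD of the pair was 0.15, and its groups came from different experiments. The deposited levels had the same mean in the inhibitor arrays as over all 42 arrays, at 11.31 for ODC1, 10.58 for SRM and 5.13 for PAOX. Ranks of groups from different experiments depend on this equal mean and are given as a description only. The highest of the 6 Scr and Scr+ATRA arrays reached 10.91 and the lowest of the 36 others 10.94. Of the 7367 genes, 5 (0.0679%) had all 6 of these arrays below all 36 others: AATF, ODC1, RAB35, TAF10 and TMED10. The margin was narrow for each of them, at most 0.24 (AATF, 9.70 against 9.94). For ODC1 this pattern was partly set in advance, because it was selected on the Scr and EZH2 KD arrays without ATRA. The pattern also sets Scr arrays against inhibitor arrays, so for ODC1 it depends on the equal mean as well.

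**Figure D2:**
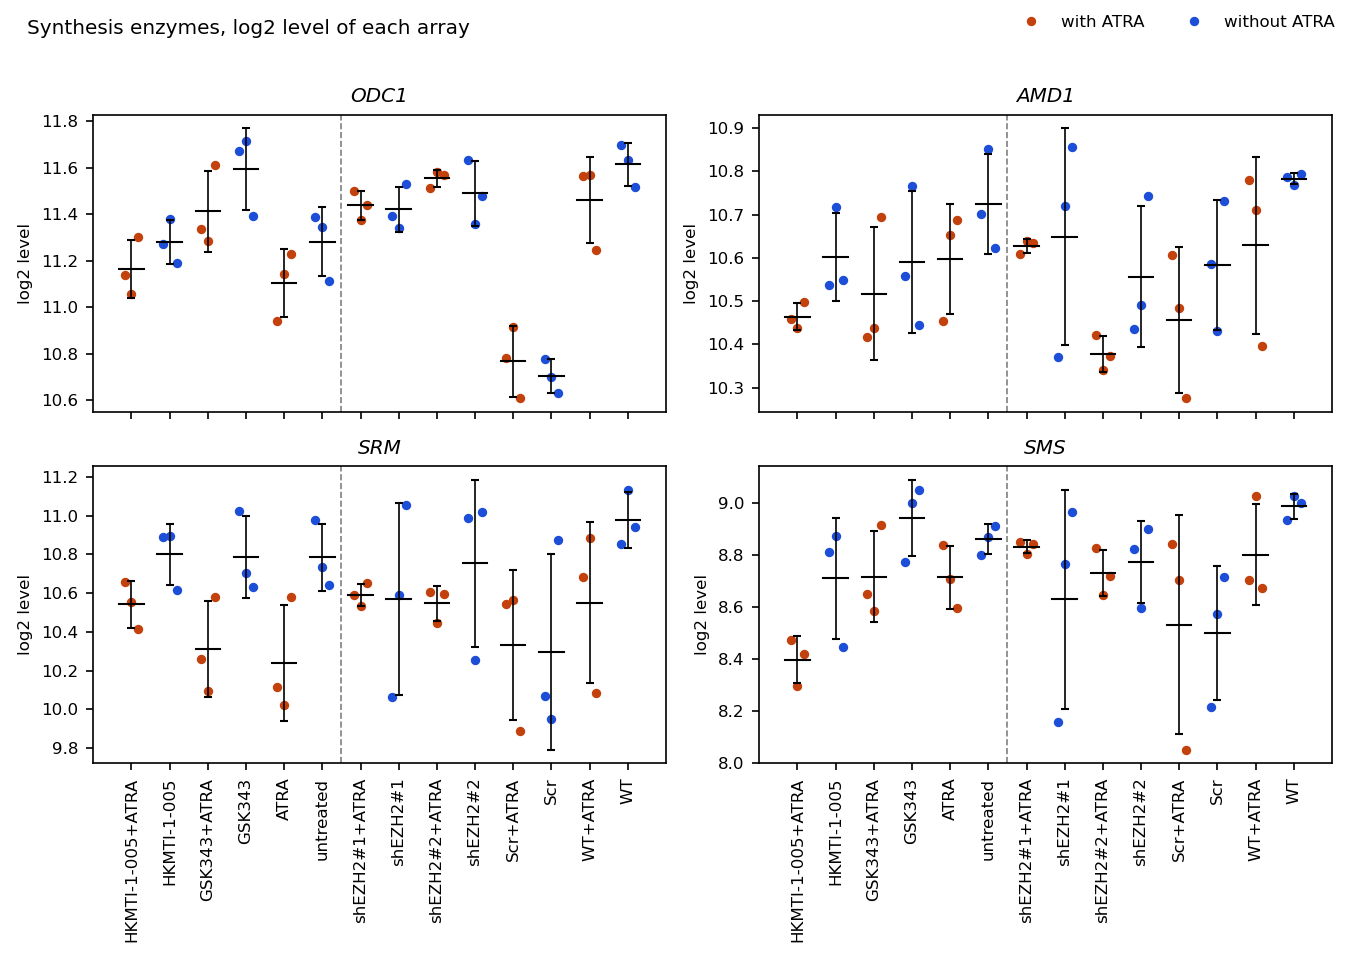
Level of ODC1, AMD1, SRM and SMS (log2) in each array of the 14 groups, the inhibitor experiment left and the knockdown experiment right of the dashed line. Points are arrays, and bars are the mean and SD of 3 arrays. The 6 Scr and Scr+ATRA arrays had the lowest ODC1, at most 10.91, and the vertical axes differ between genes and do not start at 0.

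No ODC1 response to ATRA passed the test where one was made. With ATRA, ODC1 stood at 10.94, 11.14 and 11.23 in HL-60 cells, against 11.39, 11.34 and 11.11 in untreated cells, and the arrays overlapped. The difference was -0.18 (95% interval -0.39 to 0.04, adjusted p = 0.397). In WT cells it was -0.15 (95% interval -0.37 to 0.06, adjusted p = 0.691), and over the 7 backgrounds the response ran from -0.18 to 0.06. MYC, the transcription factor that binds E-boxes, fell with ATRA in the same untreated background, to 9.97, 10.59 and 11.04 against 11.96, 12.28 and 11.41 (difference -1.35, adjusted p = 0.00265).

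The inhibitors were used at different doses, and both were set against the same untreated arrays or, with ATRA, the same ATRA arrays. With 10 µM GSK343, ODC1 stood at 11.67, 11.71 and 11.39. The lowest of these (11.3915) lay just above the highest untreated array (11.3882). The difference in ODC1 of 0.31 (95% interval 0.10 to 0.53) had an adjusted p of 0.845. With GSK343 and ATRA it stood at 11.34, 11.29 and 11.61, against 10.94, 11.14 and 11.23 with ATRA alone. These arrays did not overlap, and the share of genes apart in this way was not counted. The level was again 0.31 higher (95% interval 0.09 to 0.52), and this difference did not pass the adjustment either. With 2.5 µM HKMTI-1-005, ODC1 stood at 11.27, 11.38 and 11.19, among the untreated arrays, and the 95% interval of the difference was -0.22 to 0.21. With HKMTI-1-005 and ATRA it stood at 11.14, 11.06 and 11.30, a difference of 0.06 from ATRA alone (95% interval -0.16 to 0.28).

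The genes most like ODC1 over the 42 arrays were ADGRL2 (Pearson's r = 0.87), AATF (0.87), ECI2 (0.83), TAF10 (0.83) and GOT2 (0.79), out of 7366 genes. The arrays share their groups, and without the 6 Scr and Scr+ATRA arrays the same correlations over 36 arrays were 0.71 for ADGRL2, 0.66 for AATF, 0.78 for ECI2, 0.48 for TAF10 and 0.58 for GOT2. All of these were lower in Scr than in WT cells, with log2 differences from -0.89 (ECI2) to -1.42 (AATF). They were picked for likeness to ODC1, which was low in Scr cells, so this follows in part from the choice. Over the 18 inhibitor arrays their r with ODC1 ran from -0.12 (TAF10) to 0.85 (ECI2). MYC, with r = 0.19, ranked 3976 of 7366, and its r was 0.40 without the 6 Scr and Scr+ATRA arrays.

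SRM (spermidine synthase) had a lower mean with ATRA in all 3 backgrounds of the inhibitor experiment, without overlap of arrays in 2 of them. It stood at 10.11, 10.02 and 10.58 with ATRA, against 10.98, 10.73 and 10.64 in untreated cells, and at 10.26, 10.09 and 10.58 with GSK343 and ATRA, against 11.03, 10.70 and 10.63 with GSK343. The arrays did not overlap in either pair. With HKMTI-1-005 and ATRA it stood at 10.66, 10.56 and 10.41, against 10.89, 10.90 and 10.62 with HKMTI-1-005 alone, where the arrays overlapped (difference -0.26, adjusted p = 0.814). The first 2 differences, -0.55 (95% interval -1.03 to -0.06, adjusted p = 0.18) and -0.47 (95% interval -0.96 to 0.01, adjusted p = 0.287), did not pass, nor did SRM in any other single background. Both were called without the 6 arrays of high median, which are all of the knockdown experiment (adjusted p = 0.00956 and 0.0288), and with the array median as a covariate (-0.59, adjusted p = 0.0129, and -0.50, adjusted p = 0.0403). The mean response to ATRA over the 7 backgrounds was -0.26 ± 0.09 (SE, adjusted p = 0.027), below 1.3-fold, and was negative in 5 backgrounds.

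Within the knockdown groups SRM varied with the array median. It stood at 10.07, 9.95 and 10.88 in Scr cells, against 10.85, 11.14 and 10.94 in WT cells, and at 10.06, 10.59 and 11.05 in shEZH2#1 cells. In the 6 arrays of high median SRM lay between 9.89 and 10.25, and in the 18 other knockdown arrays between 10.44 and 11.14. The difference of Scr from WT was -0.68 (adjusted p = 0.0562), and without those 6 arrays it was -0.10. Over all 42 arrays SRM and the array median had r = -0.65, with -0.86 over the 24 knockdown arrays and 0.08 over the 18 inhibitor arrays.

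SMS (spermine synthase) and AMD1 (S-adenosylmethionine decarboxylase) showed no called change in any of the 22 comparisons of groups. SMS stood at 8.47, 8.30 and 8.42 with HKMTI-1-005 and ATRA, below all 3 arrays with ATRA alone at 8.84, 8.71 and 8.60, a difference of -0.32 (95% interval -0.66 to 0.02, adjusted p = 0.498). The SMS arrays of high median lay at 8.05 to 8.67, against 8.65 to 9.03 in the other knockdown arrays. For AMD1, the mean ATRA response was small but negative in all 7 backgrounds, at -0.12 ± 0.04 (SE, adjusted p = 0.0417), with single values from -0.18 to -0.02.

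Among the regulators, AZIN1, the antizyme inhibitor, rose with ATRA. It stood at 10.74, 10.71 and 10.41 with ATRA, against 10.02, 10.06 and 10.12 in untreated cells, and at 10.56, 10.51 and 10.45 with GSK343 and ATRA, against 10.03, 10.03 and 10.17 with GSK343. The arrays with ATRA lay above their controls in 6 of 7 backgrounds, with overlap only in WT cells, and 2.9% of genes lay above in at least 6. The rise was 0.55 ± 0.10 (SE), 1.47-fold (adjusted p = 0.000292), in untreated cells and 0.43 (adjusted p = 0.00471) with GSK343. With HKMTI-1-005 it was 0.36 (adjusted p = 0.0347), short of 1.3-fold. In the knockdown experiment the differences were 0.30 in Scr, 0.26 in shEZH2#1, 0.29 in shEZH2#2 and 0.14 in WT cells, none past the test (adjusted p from 0.0858 to 0.701). The RNA came from whole cultures, so more cells of a type and more RNA per cell cannot be told apart for this or any later change.

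The antizymes OAZ1 and OAZ2 also stood higher with ATRA. OAZ1 averaged 0.17 ± 0.05 (SE) higher with ATRA over the 7 backgrounds (adjusted p = 0.0121) and OAZ2 0.30 ± 0.06 (SE, adjusted p = 0.000574). Both differences were positive in every background, below 1.3-fold on average, and no single background passed the test. In untreated cells the arrays of OAZ1 did not overlap, at 12.53, 12.51 and 12.52 with ATRA, against 12.31, 12.29 and 12.24 without. OAZ2 stood at 7.77, 7.81 and 7.72 with ATRA, against 7.54, 7.42 and 7.42 in untreated cells, and at 7.60, 7.99 and 7.48 in Scr+ATRA cells, against 7.12, 7.12 and 7.47 in Scr cells, also without overlap. The Scr pair was barely apart, and its 2 lowest arrays, Scr 1 and Scr 2, were of high median. With the array median as a covariate the Scr difference of OAZ2 was 0.26, against 0.46 as deposited. Arrays with ATRA lay fully above their controls in 2 of 7 backgrounds for OAZ1 and in 3 of 7 for OAZ2. The group means of OAZ2 ran from 7.24 in Scr to 8.04 in shEZH2#1+ATRA cells. Like that of OAZ1, its level went with the array median (r = -0.68 over 42 arrays, -0.72 over the knockdown and -0.46 over the inhibitor arrays).

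**Figure D3:**
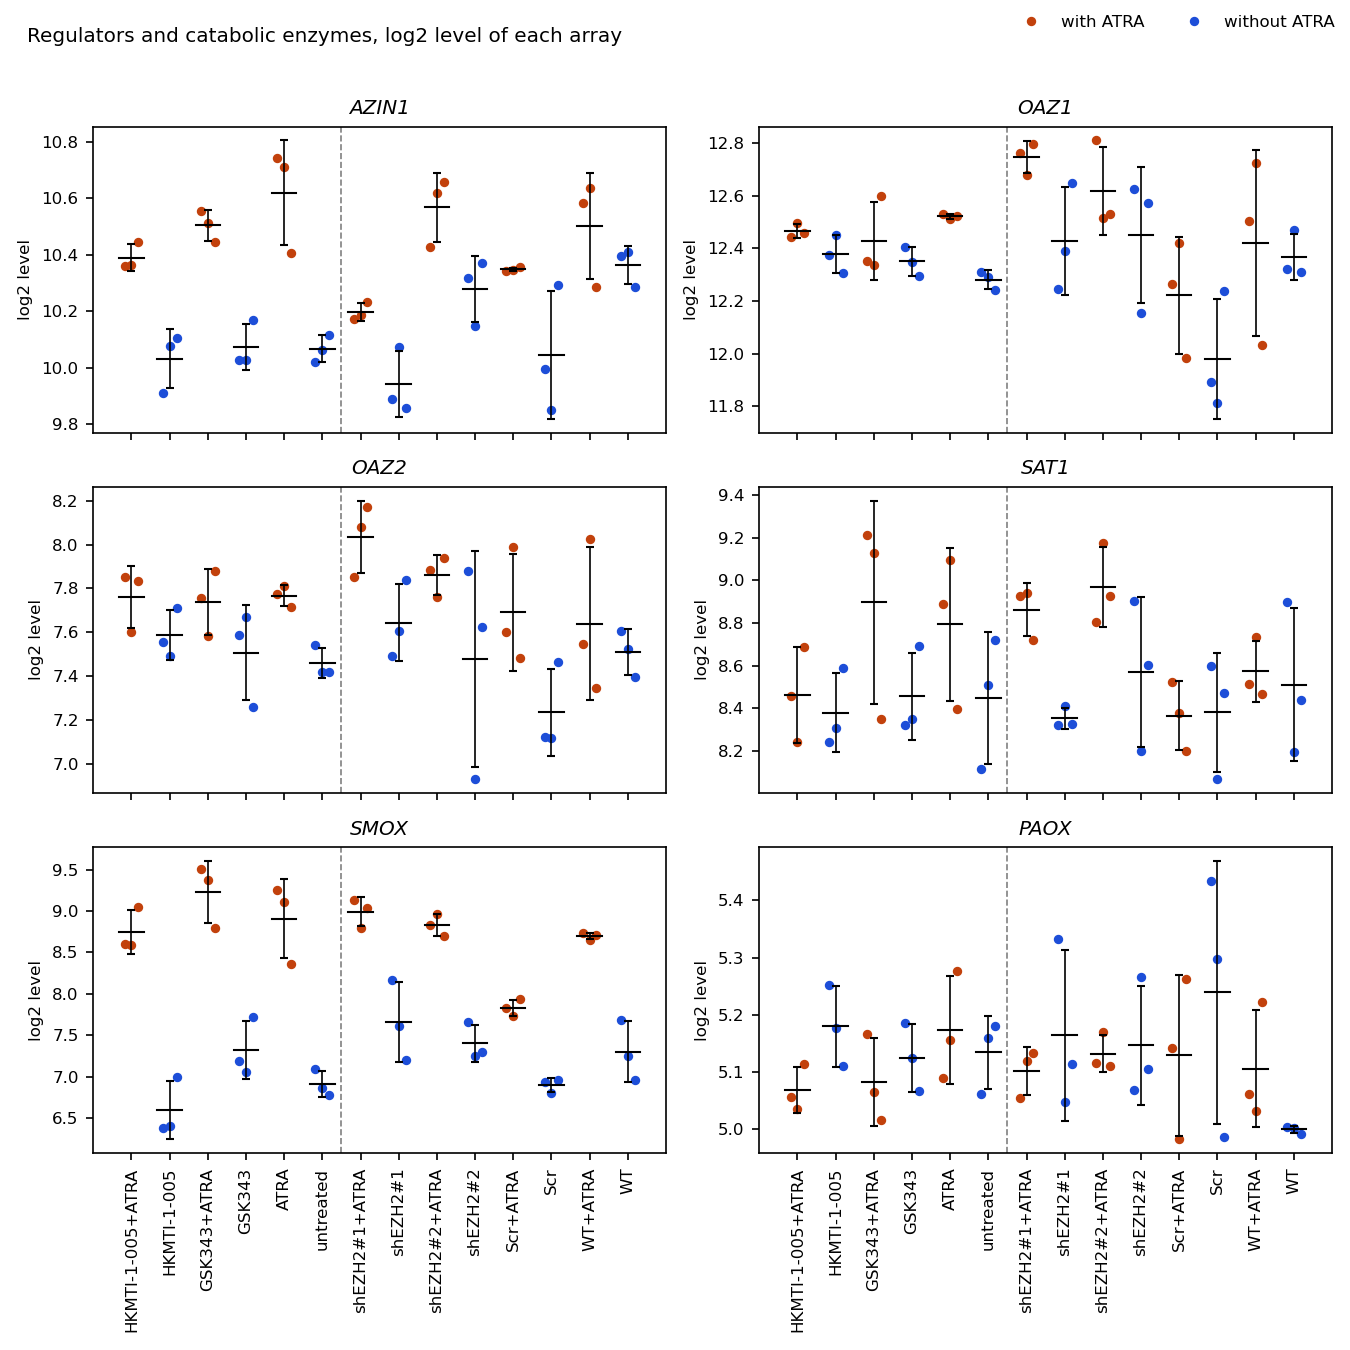
Level of AZIN1, OAZ1, OAZ2, SAT1, SMOX and PAOX (log2) in each array of the 14 groups, the inhibitor experiment left and the knockdown experiment right of the dashed line. Points are arrays, and bars are the mean and SD of 3 arrays. SMOX stood above its controls in every background with ATRA, from 7.73 to 9.50, and the vertical axes differ between genes and do not start at 0.

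OAZ1 also differed between knockdown and Scr cells. With ATRA it stood at 12.76, 12.68 and 12.80 in shEZH2#1+ATRA cells and at 12.81, 12.52 and 12.53 in shEZH2#2+ATRA cells, against 12.26, 12.42 and 11.98 in Scr+ATRA cells, without overlap. Without ATRA it stood at 12.25, 12.39 and 12.65 in shEZH2#1 and 12.63, 12.16 and 12.57 in shEZH2#2 cells, against 11.89, 11.81 and 12.24 in Scr cells, where 1 shEZH2#2 array lay below the highest Scr array. EZH2 KD was higher than Scr by 0.46 ± 0.12 (SE, adjusted p = 0.0233) without and by 0.46 ± 0.12 (SE, adjusted p = 0.0208) with ATRA, and shEZH2#1+ATRA passed alone (0.52, adjusted p = 0.0244). Against WT cells the differences were 0.07 without (95% interval -0.17 to 0.31) and 0.26 with ATRA (95% interval 0.02 to 0.50, adjusted p = 0.328). The level of OAZ1 went with the array median (r = -0.73 over 42 arrays, -0.78 over the knockdown and -0.28 over the inhibitor arrays). It was 11.81 to 12.25 in the 6 arrays of high median and 12.24 to 12.81 in the other knockdown arrays. Without those 6 arrays the differences from Scr were 0.32 (adjusted p = 0.509) without and 0.34 (adjusted p = 0.0227) with ATRA, the second short of 1.3-fold, so neither was called, while shEZH2#1+ATRA against Scr+ATRA was (0.40, adjusted p = 0.0139). Leaving out single arrays ended the call in 5 of 9 fits without ATRA (adjusted p = 0.261 without Scr 2) and in 3 of 9 with ATRA (adjusted p = 0.252 without Scr+ATRA 3), and it ended that of shEZH2#1+ATRA alone in 5 of 6 fits (adjusted p up to 0.229, without Scr+ATRA 3). A separate fit of the knockdown experiment also ended all 3 OAZ1 calls (adjusted p from 0.124 to 0.145), and centring on array medians ended the 2 with ATRA (adjusted p = 0.0676 for EZH2 KD and 0.0723 for shEZH2#1).

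SMOX (spermine oxidase) had the largest ATRA response of the 10 genes and rose in every background. It stood at 9.25, 9.11 and 8.36 with ATRA, against 7.09, 6.86 and 6.78 in untreated cells. The rise was 2.00 ± 0.23 (SE) on the log2 scale, 4.00-fold (adjusted p = 5.20e-07). With HKMTI-1-005 and ATRA SMOX stood at 8.61, 8.59 and 9.05, against 6.38, 6.40 and 6.99 with HKMTI-1-005 alone, a rise of 2.16 (adjusted p = 1.01e-07). With GSK343 and ATRA it stood at 9.50, 9.38 and 8.80, against 7.18, 7.06 and 7.72 with GSK343 alone, a rise of 1.91 (adjusted p = 1.65e-06). No array with ATRA overlapped its controls in any of these pairs.

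The knockdown experiment gave smaller values of the same sign. In WT+ATRA cells SMOX stood at 8.73, 8.65 and 8.71, against 7.69, 7.25 and 6.95 in WT cells, a rise of 1.40 (adjusted p = 0.000287). In shEZH2#1+ATRA cells it stood at 9.14, 8.80 and 9.04, against 8.16, 7.61 and 7.19 in shEZH2#1 cells, a rise of 1.33 (adjusted p = 0.000191). In shEZH2#2+ATRA cells it stood at 8.83, 8.97 and 8.70, against 7.66, 7.25 and 7.30 in shEZH2#2 cells, a rise of 1.43 (adjusted p = 7.90e-05). The arrays were again fully apart in each pair. Scr+ATRA cells stood lowest, at 7.83, 7.73 and 7.93, against 6.94, 6.80 and 6.96 in Scr cells, a rise of 0.93 (adjusted p = 0.0186), and this call was lost in 4 of 6 fits that left out 1 array (adjusted p up to 0.105, without Scr 2) and without the 6 arrays of high median, which leave 1 Scr array (0.82, adjusted p = 0.488). SMOX was thus above its controls without overlap in all 7 backgrounds, as were 1.51% of genes, and called higher in all 7, as were 0.706%. An F-test from the limma fit asked whether the response differed among backgrounds, and SMOX did not pass it (adjusted p = 0.274), while 0.38% of genes did.

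**Figure D4:**
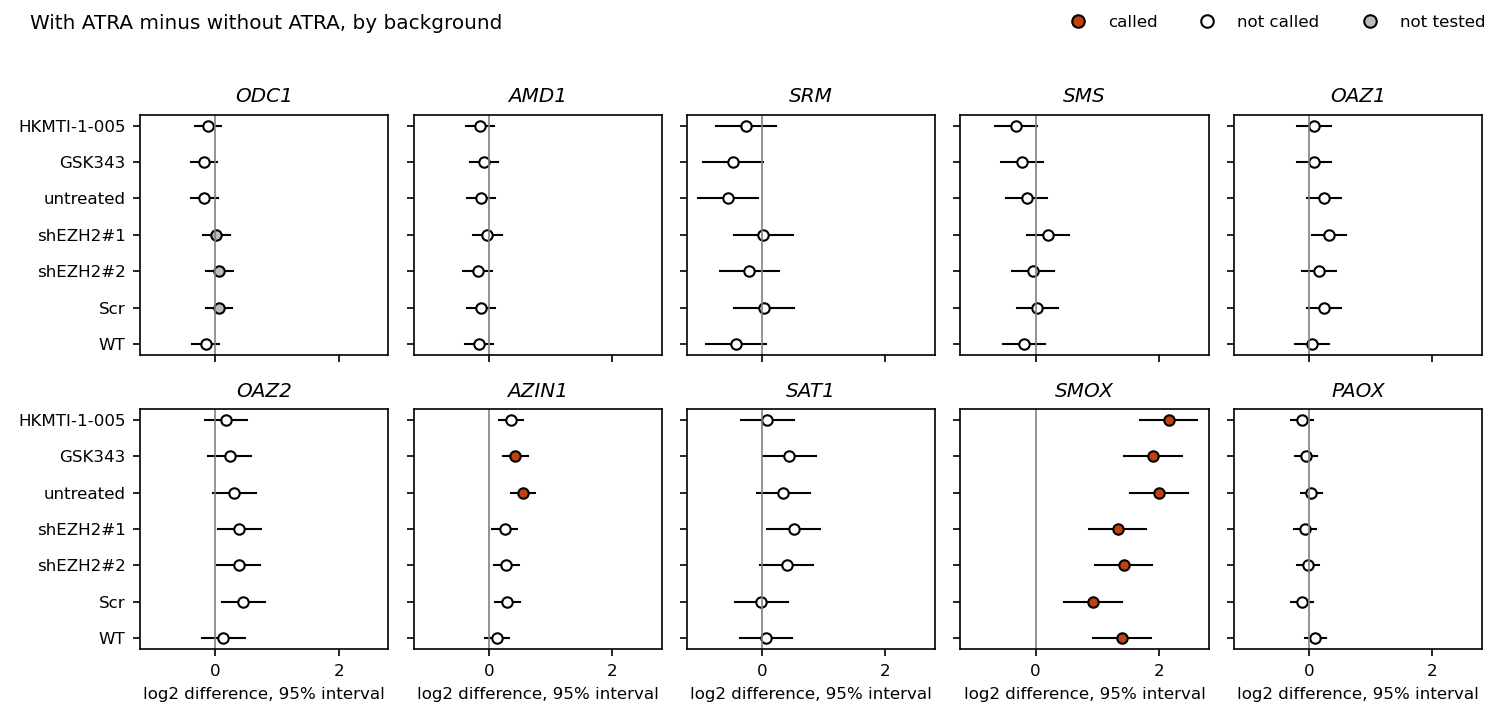
Difference with ATRA minus without ATRA (log2, horizontal axis) of each member in each of 7 backgrounds, with the 95% interval of the limma fit. Filled points were called, open points were not, and grey points (ODC1 where its arrays were used to select it) were not tested. SMOX was called in all 7 backgrounds, with differences of 0.93 to 2.16, and AZIN1 in 2.

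Under ATRA, SMOX was also higher in knockdown than in Scr cells. EZH2 KD+ATRA exceeded Scr+ATRA by 1.08 ± 0.20 (SE), 2.11-fold (adjusted p = 0.00129), with 1.16 for shEZH2#1 (adjusted p = 0.00282) and 1.00 for shEZH2#2 (adjusted p = 0.0181, lost in 4 of 6 fits that left out 1 array and at most 0.111, without shEZH2#2+ATRA 1). Against WT+ATRA the difference was 0.21 (95% interval -0.19 to 0.62, adjusted p = 0.762). Scr+ATRA lay below WT+ATRA without overlap, but the difference of -0.87 missed the threshold (adjusted p = 0.074). SMOX, like ODC1, therefore had its lowest ATRA-treated level in Scr cells, and the order of its group means had its only clear gap among ATRA groups there (where the larger SD of the pair was 0.10). Without ATRA the difference of EZH2 KD from Scr was 0.63 (adjusted p = 0.0631).

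SAT1, the acetyltransferase that starts polyamine breakdown and export, averaged 0.26 ± 0.08 (SE) higher with ATRA (adjusted p = 0.0127), below 1.3-fold, with single responses from -0.02 in Scr to 0.51 in shEZH2#1 cells. In shEZH2#1+ATRA cells it stood at 8.93, 8.94 and 8.72 and in shEZH2#2+ATRA cells at 8.81, 9.18 and 8.92, against 8.52, 8.38 and 8.20 in Scr+ATRA cells. These arrays did not overlap, but the difference of 0.55 did not pass the adjustment (adjusted p = 0.0857). PAOX, the oxidase of acetylated polyamines, stood between 4.98 and 5.43, near the array medians. In the knockdown experiment it lay at 5.22 to 5.43 in the 6 arrays of high median, against 4.98 to 5.17 in the other 18 (r with the array median 0.83 over 42 arrays).

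**Figure D5:**
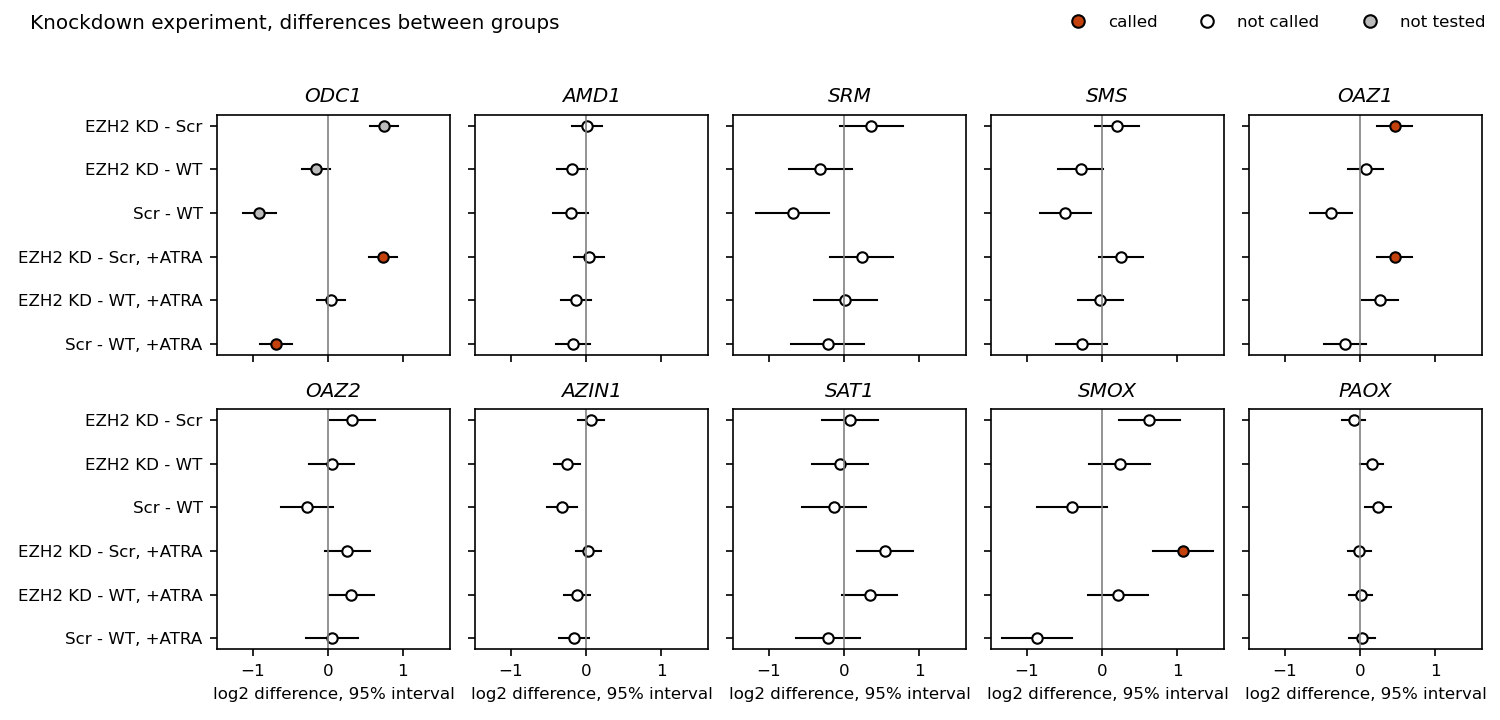
Differences between groups of the knockdown experiment (log2, horizontal axis) for each member, with the 95% interval of the limma fit. Filled points were called, open points were not, and grey points were not tested. ODC1, OAZ1 and SMOX were called for EZH2 KD against Scr with ATRA, and no member was called for EZH2 KD against WT.

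Counted over the members, ATRA called AZIN1 and SMOX higher in untreated cells (2 of 9 members in the top 40%, against 13.1% of genes called) and the same genes with GSK343 (2 of 9, against 10.4%). SMOX was the only member called with HKMTI-1-005 (1 of 9, against 4.05%), in WT cells (1 of 9, against 2.13%), in Scr cells (1 of 8, against 4.98%), in shEZH2#1 cells (1 of 8, against 8.65%), in shEZH2#2 cells (1 of 8, against 8.36%) and for the mean ATRA effect (1 of 8, against 11.5%). No member was called lower by ATRA. The shares above count calls in both directions, and the share of genes called lower alone was not counted. At the adjusted p alone, 5 of 8 members were higher in the mean effect (SMOX, AZIN1, OAZ2, OAZ1 and SAT1, where 17.8% of genes were) and 2 were lower (SRM and AMD1, where 25.1% were). The median difference over the 9 tested members was 0.17, against 0.00241 over all genes and -0.0247 over the top 40%.

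With ATRA, 3 of 9 members (ODC1, OAZ1 and SMOX) were higher in EZH2 KD than in Scr cells, where 5.38% of genes were called. The median difference was 0.25 over the 10 members, which include the selected ODC1, against 0.0128 over all genes and 0.0445 over the top 40%. The same 3 were called for shEZH2#1 (5.08% of genes), and ODC1 and SMOX for shEZH2#2 (2 of 9, against 2.1%). Without ATRA, 1 of 8 tested members (OAZ1) was called for EZH2 KD against Scr (6.12% of genes), and none for shEZH2#1 (6.07%) or shEZH2#2 (2.46%). Against WT cells no member was called for EZH2 KD without ATRA (0 of 8, against 0.407% of genes) or with ATRA (0 of 9, against 3.28%). Between the controls, ODC1 was called lower in Scr+ATRA than in WT+ATRA (1 of 9, against 0.991%). The ODC1 calls with ATRA are not independent of its selection on the Scr and EZH2 KD arrays without ATRA. None of 8 was called between Scr and WT, although 21.6% of genes were, and there AZIN1 was lower, with a difference of -0.32 (adjusted p = 0.0301), short of 1.3-fold. This AZIN1 difference moved with the array median, which was high in Scr 1 and Scr 2. It was -0.07 without the 6 arrays of high median, which leave 1 Scr array. With the array median as a covariate in the limma fit it was -0.14 (adjusted p = 0.674).

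No member was called for either inhibitor. None of 9 was called for GSK343 against untreated (0.0136% of genes), for HKMTI-1-005 against untreated (0.217%), for GSK343+ATRA against ATRA (0.0136%) or for HKMTI-1-005+ATRA against ATRA (0.76%), and at an unadjusted p of at most 0.05 limma counted 1, 0, 1 and 1 members in that order. Without ATRA, SMOX differed by 0.41 with GSK343 (95% interval -0.05 to 0.88) and by -0.32 with HKMTI-1-005 (95% interval -0.79 to 0.15), and with ATRA, SAT1 differed by -0.33 with HKMTI-1-005 (95% interval -0.76 to 0.10). Whether ATRA acted differently with an inhibitor or a knockdown was tested as an interaction, and no member passed. The share of genes called was 0% for GSK343, 0% for HKMTI-1-005 and 0.0814% for EZH2 KD against Scr, and 0% for the response of untreated cells against that of WT cells. For SMOX the interaction of EZH2 KD with ATRA was 0.45 (95% interval -0.12 to 1.02).

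The wider pathway was read from 6 lists of 35 genes, of which 34 were measured and 24 lay in the top 40%. In the mean ATRA effect 2 of the 24 rose and 3 fell, where 11.5% of all genes in the top 40% were called. ATP13A2, a lysosomal polyamine transporter, rose by 0.68 (adjusted p = 2.35e-09), and ADI1, an enzyme of methionine salvage, by 0.42. ASS1, which makes argininosuccinate on the way to arginine, fell by 0.80 (adjusted p = 2.28e-09), MYC fell by 0.70 (adjusted p = 8.33e-06) and MRI1, also of methionine salvage, fell by 0.41. ASS1 stood at 10.85, 10.81 and 10.65 with ATRA, against 11.71, 11.80 and 11.49 in untreated cells, with no overlap. By list and among genes in the top 40%, 1 of 5 genes of ornithine and arginine supply fell and 1 of 4 transport genes rose. Of 10 genes of the methionine cycle and salvage 1 rose and 1 fell, and 1 of 4 genes of MYC and its partners fell. Only 1 of 3 measured hypusination genes lay in the top 40%, and it was not called. None of the 4 antizyme and acetyltransferase relatives lay there, so no call could be made for them.

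In the knockdown comparisons, 3 of the 24 genes were called for EZH2 KD against Scr (6.12% of all genes), 3 with ATRA (5.38%) and 1 for EZH2 KD+ATRA against WT+ATRA (3.28%). For EZH2 KD against Scr, MXD1, a partner of MAX that represses E-box genes, was higher by 1.06 (adjusted p = 0.00381), MAT2A, which makes S-adenosylmethionine, was higher by 0.57 (adjusted p = 0.0455), and MTR, methionine synthase, was lower (difference -0.39, adjusted p = 0.0254). These 3 differed in the opposite direction between Scr and WT, which share the Scr arrays: MXD1 by -1.54, MAT2A by -0.78 and MTR by 0.51. With ATRA, MXD1 was again higher in EZH2 KD than in Scr cells (0.92, adjusted p = 0.00958) and AHCY, which breaks down S-adenosylhomocysteine, was lower (difference -0.48). ASS1 with ATRA was lower in EZH2 KD than in Scr cells (difference -0.87, adjusted p = 0.00595) and also lower than in WT cells (difference -0.71, adjusted p = 0.0348). It stood at 10.24, 10.53 and 10.39 in shEZH2#1+ATRA cells and 10.20, 10.52 and 10.96 in shEZH2#2+ATRA cells, against 11.38, 11.55 and 11.10 in Scr+ATRA and 11.12, 11.41 and 11.02 in WT+ATRA cells.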

How the data were processed

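Total RNA of HL-60 cells was hybridised to Affymetrix Human Gene 1.0 ST arrays. The authors applied GC-RMA and then a removal of batch and date effects, both in Partek Genomics Suite (version and batches not given in the sources used here), and the deposited table holds the resulting log2 values, a scale inferred from their range of 3.18 to 14.49. Because of that removal, p-values measure the spread between arrays that was left by it. Precision is limited by how many arrays there are. All columns of the table were used. Of 33297 probe sets, 19460 carried 1 gene symbol, 1754 several and 12083 none, and the first kind gave 18417 genes.

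All 42 arrays entered 1 fit of 14 group means (limma 3.58.1, R 4.3.3, 28 residual degrees of freedom, two-sided moderated tests), with p-values adjusted by Benjamini-Hochberg over all genes within each comparison, and with the thresholds of the study's methods (adjusted p of 0.05, 1.3-fold, top 40% by mean level). A 95% interval is that of the fit. The steps were tested on simulated data. The members and lists were chosen with earlier results of these data known. All 10 members were named, and of the lists the genes called in a comparison, together with EZH2, DHRS3 and MYC. For the genes most like ODC1, the 5 highest correlations in the top 40% were taken.

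The labels number the arrays 1 to 3 in each group. Same-numbered arrays deviated together (every correlation above 0.1) in 4 of 17 comparisons checked: GSK343 against untreated, HKMTI-1-005 against untreated, shEZH2#2+ATRA against shEZH2#2 and Scr+ATRA against WT+ATRA. The labels do not say that a number marks a shared culture. The alternatives tried were the number as a block, 1 fit per experiment, no level filter, no fold minimum, an intensity trend, quantile normalisation, centring on array medians, all probe sets of a gene, adjustment over all comparisons, the unpaired t-test that the methods name in general, and leaving out each array. After seeing the data, leaving out the 6 arrays of high median, the array median as a covariate and the t-test without adjustment were added.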

Additional observations from a re-analysis of the deposited data

How the results depend on the processing

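Of the 54 single differences followed, 1 turned round, that of OAZ2 for shEZH2#2 against Scr, which was not called: it was -0.0027 with the array median as a covariate, against 0.24 as deposited (adjusted p = 0.996 and 0.508). With the replicate number as a block, the count of called members was the same as without it in every comparison (2 for ATRA against untreated, 3 for EZH2 KD+ATRA against Scr+ATRA, 1 for Scr+ATRA against WT+ATRA), and the 54 differences stayed on their side of the threshold. The intensity trend, the mean of all probe sets and no level filter also left all 54 there.

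The methods' t-test with Benjamini-Hochberg adjustment called 0 members in each comparison of groups where limma called any, except EZH2 KD+ATRA against Scr+ATRA, where it called 2; it was not run on the mean ATRA effect. Without adjustment it called 3 for shEZH2#1+ATRA against shEZH2#1, 1 for shEZH2#2 against Scr, 2 for EZH2 KD against Scr, 1 for Scr against WT and 2 for Scr+ATRA against WT+ATRA. With no fold minimum the counts were 2 for HKMTI-1-005+ATRA against HKMTI-1-005 (AZIN1 and SMOX), 7 for the mean ATRA effect and 1 for Scr against WT (AZIN1). Quantile normalisation called 2 for shEZH2#1 against Scr (OAZ1 and SMOX), 1 for shEZH2#2 against Scr (OAZ1) and 1 for Scr against WT (SRM). Centring on array medians called 1 for shEZH2#1 against Scr (SMOX), 2 for EZH2 KD against Scr (OAZ1 and SMOX) and 4 for Scr against WT (SRM, SMS, AZIN1 and OAZ1), and made the ODC1 difference of Scr from WT -1.07. Centring shifted the median of all genes by -0.17 for Scr against WT and by 0.11 for EZH2 KD against Scr. Adjusting over all comparisons called 1 for shEZH2#2 against Scr (OAZ1) and 2 for Scr+ATRA against WT+ATRA (ODC1 and SMOX). Calls were lost for OAZ1 in the 2 comparisons with ATRA under centring, and there and for EZH2 KD against Scr under 1 fit per experiment, which also called SRM for ATRA against untreated (adjusted p = 0.0289). For EZH2 KD against Scr, 1 fit per experiment, leaving out the 6 arrays of high median and the array median as a covariate each called 0. Without those 6 arrays Scr+ATRA against Scr also called 0, and the covariate made the ODC1 difference of Scr from WT -0.78. The cause was not tested.

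Leaving out 1 array at a time, the count of called members ran from 0 to 3 for Scr+ATRA against Scr and for EZH2 KD against Scr, from 0 to 2 for shEZH2#1 and for shEZH2#2 against Scr, from 0 to 4 for Scr against WT, from 2 to 3 for GSK343+ATRA against GSK343, for EZH2 KD+ATRA against Scr+ATRA and for shEZH2#1+ATRA against Scr+ATRA, from 1 to 2 for HKMTI-1-005+ATRA against HKMTI-1-005 and for shEZH2#2+ATRA against Scr+ATRA. It stayed at 2 for ATRA against untreated, at 1 for the other ATRA effects and for Scr+ATRA against WT+ATRA, and at 0 for the inhibitors, for EZH2 KD against WT without and with ATRA and for the tests of different ATRA responses. The ODC1 differences with ATRA kept their call in each of these fits, at 0.65 to 0.80 for EZH2 KD against Scr and -0.80 to -0.61 for Scr against WT. Without ATRA ODC1 differed by 0.71 to 0.79 for EZH2 KD against Scr, by -0.21 to -0.12 for EZH2 KD against WT and by -0.96 to -0.87 for Scr against WT.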

Other observations

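The members varied together in pairs from array to array. Over the 42 arrays, which share groups and array medians, Pearson's r was 0.82 between OAZ1 and OAZ2, 0.71 between AZIN1 and SMOX, 0.65 between SRM and SMS, 0.63 between SAT1 and SMOX and 0.62 between AMD1 and SRM. After subtracting the group means, r was 0.88 between SRM and OAZ1, 0.76 between OAZ1 and OAZ2, 0.69 between AMD1 and SRM, 0.68 between SRM and OAZ2, 0.66 between SRM and SMS and 0.43 between AZIN1 and SMOX. Between OAZ1 and PAOX it was -0.68. Array medians differed within groups of the knockdown experiment, and subtracting the group means did not take them out. How far the members varied together apart from the array median was not tested. These correlations describe the arrays and carry no test.

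Further genes of the lists were called in single comparisons. AHCY fell with ATRA by 0.60 in untreated cells (adjusted p = 0.000313) and differed by -0.48 with GSK343, and it was lower in EZH2 KD+ATRA than in Scr+ATRA cells (difference -0.48, adjusted p = 0.00195). MTAP, which clears the methylthioadenosine left over from polyamine synthesis, was lower with GSK343 and ATRA than with GSK343 (difference -0.61, adjusted p = 0.0077). ATP13A2 rose by 1.02 in shEZH2#1 cells and 0.99 in shEZH2#2 cells with ATRA. SLC3A2, the heavy chain of amino acid transporters, was higher in shEZH2#1 than in Scr cells (0.48, adjusted p = 0.0355) and lower in shEZH2#1+ATRA than in shEZH2#1 cells (-0.50, adjusted p = 0.0182). No gene of the 6 lists was called for either inhibitor against its control without or with ATRA, where few genes were called at all. The shares were 0.0136% for GSK343 and 0.217% for HKMTI-1-005 without ATRA, and 0.0136% and 0.76% with ATRA.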
